A study of Mus musculus with 8 samples.

Results

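The Ms4a genes encode small proteins that cross the cell membrane several times and sit beside immune receptors, where they adjust signalling and trafficking. In the mouse they lie together on chromosome 19. The best known are Ms4a1, which encodes CD20 of B cells, and Ms4a2, which encodes the beta chain of the high-affinity IgE receptor of mast cells and basophils, while Ms4a4a, the Ms4a6 genes and Ms4a7 are known from macrophages and Ms4a4b from T cells. In liver, macrophages are mainly the Kupffer cells of the sinusoids, and many of these genes are known there from immune cells rather than from hepatocytes. The 10 genes described here, Ms4a4a, Ms4a4b, Ms4a4c, Ms4a4d, Ms4a6b, Ms4a6c, Ms4a6d, Ms4a7, Ms4a1 and Ms4a2, were taken by gene symbol out of 19937 genes measured, and each was represented by 1 probe set. The family was selected on these arrays, with Ms4a6c already known to be among the genes with the largest difference between HO1 knockout and control cells. Values of that comparison are therefore given as a description with no test.

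Total RNA was measured on 8 whole-transcript microarrays of primary hepatocytes, which were obtained by collagenase perfusion and a Percoll gradient from livers of male BALB/c mice. The arrays formed 4 groups of 2. The combined group had HO1-/- cells with lentiviral shRNA against HO2, the HO1 knockout group HO1-/- cells with scrambled shRNA, the HO2 knockdown group HO1+/+ cells with the HO2 shRNA, and the control group HO1+/+ cells with scrambled shRNA. HO1 and HO2 are the heme oxygenases encoded by Hmox1 and Hmox2, which release carbon monoxide from heme, and the series asks what carbon monoxide metabolism does for circadian transcription. All 4 groups were transduced, selected with puromycin for 3 days from 24 h after transduction, pulsed for 30 min with dexamethasone at 1 µM, and collected after a further 28 h, so every level belongs to a single time. The knockdown rests on 1 hairpin. The age of the mice was not given, and the replicates were called biological without saying whether they came from separate animals, so p-values measure the spread between these arrays, and the hepatocyte preparation cannot be told apart from the genotype.

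Hmox2 was at 9.26 and 9.33 log2 units in combined arrays, 11.59 and 11.60 in HO1 knockout, 8.32 and 8.38 in HO2 knockdown and 11.41 and 11.57 in control arrays, so it was low in the arrays with the HO2 hairpin, 4.93-fold lower in combined than in HO1 knockout arrays and 8.79-fold lower in HO2 knockdown than in control arrays. It was thus 1.92-fold higher in combined than in HO2 knockdown arrays (limma, adjusted p = 2.4e-08), so that those groups differ in Hmox2 level besides HO1 genotype, and the part of unequal knockdown in the comparisons below was not tested. Hmox1 was at 12.40 and 12.47 in combined, 11.98 and 11.97 in HO1 knockout, 11.54 and 11.57 in HO2 knockdown and 11.46 and 11.40 in control arrays, so the arrays labelled HO1-/- did not carry less of it. No source used here names the deleted exons, the probe set may lie outside them, and every HO1 direction below rests on the labels. Array medians ran between 7.61 and 7.70. Correlations over all genes were 0.997 to 0.999 within groups (4 pairs) and 0.975 to 0.989 between groups (24 pairs). As a measure of background, 1194 olfactory and vomeronasal receptor genes were taken as a set mostly silent in liver, which was not tested here. Of these genes, 95% lay at or below 6.99 in combined, 7.02 in HO1 knockout, 6.83 in HO2 knockdown and 7.02 in control arrays. A gene with a group mean at or below that level is called within the background range in that group, and a fold change against it understates the difference in RNA.

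Promoter windows from RefSeq (assembly GRCm38.p6, a C57BL/6J reference, whereas these mice were BALB/c) were matched by symbol for 8 of the 10 genes, as 9 windows of 300.0 bases that span the annotated start and lie mostly before it. The 4 windows below are shown because they form 2 pairs with long shared sequence whose members behaved alike in 1 pair and unlike in the other. The Ms4a6c window (chr19:11469118-11469417, plus strand) and the Ms4a6b window (chr19:11518309-11518608, plus strand) had 188 identical bases in 232 aligned columns (81%), and capitals mark their longest identical stretch, 48 bases.
Ms4a6c: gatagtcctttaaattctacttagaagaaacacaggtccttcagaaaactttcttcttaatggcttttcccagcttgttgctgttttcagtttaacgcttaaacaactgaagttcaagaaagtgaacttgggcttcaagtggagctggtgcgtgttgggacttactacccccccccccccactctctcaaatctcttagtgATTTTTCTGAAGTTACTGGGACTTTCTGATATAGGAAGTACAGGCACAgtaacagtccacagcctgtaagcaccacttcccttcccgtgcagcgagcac
Ms4a6b: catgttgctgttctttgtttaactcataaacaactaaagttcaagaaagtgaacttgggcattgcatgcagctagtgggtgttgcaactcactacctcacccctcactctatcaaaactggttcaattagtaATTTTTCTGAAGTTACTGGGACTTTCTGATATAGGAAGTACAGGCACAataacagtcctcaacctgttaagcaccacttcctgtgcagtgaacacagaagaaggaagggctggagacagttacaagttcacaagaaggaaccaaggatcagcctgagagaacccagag
The Ms4a4c window (chr19:11407411-11407710, plus strand) and the Ms4a4b window (chr19:11443308-11443607, plus strand) had 162 identical bases in 183 aligned columns (88.5%), and capitals mark a shared stretch of 20 bases.
Ms4a4c: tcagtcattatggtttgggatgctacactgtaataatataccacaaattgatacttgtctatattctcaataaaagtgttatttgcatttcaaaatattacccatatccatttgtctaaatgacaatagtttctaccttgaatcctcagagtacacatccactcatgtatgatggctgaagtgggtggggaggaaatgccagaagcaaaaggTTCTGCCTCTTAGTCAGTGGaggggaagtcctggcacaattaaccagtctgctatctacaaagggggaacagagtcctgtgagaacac
Ms4a4b: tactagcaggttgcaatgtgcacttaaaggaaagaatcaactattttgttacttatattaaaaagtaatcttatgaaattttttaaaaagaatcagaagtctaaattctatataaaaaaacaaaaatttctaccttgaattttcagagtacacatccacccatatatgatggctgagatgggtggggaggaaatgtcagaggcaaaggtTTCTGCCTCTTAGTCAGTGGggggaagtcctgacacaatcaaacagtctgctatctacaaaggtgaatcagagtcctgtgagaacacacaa
The other pairs of member windows shared stretches of 6 to 13 bases. Both windows of the Ms4a6 pair held GAAANNGAA, the pair of half-sites bound by interferon regulatory factors, on the plus strand, beginning at -133 in Ms4a6c and at -206 in Ms4a6b relative to the start. Both also held AGGAAGT, a core recognised by ETS factors such as PU.1, at -17 in Ms4a6c and at -86 in Ms4a6b, inside the capitals, and Ms4a6b held it again on the minus strand at -43. Both windows of Ms4a7, a gene on the minus strand of the chromosome, held GAAANNGAA, at -71 opposite to the gene's strand in one and at -148 along it in the other, and no other member window held either motif. Counted on both strands, 8.56% of all 32851 promoter windows held GAAANNGAA and 9.35% held AGGAAGT. These motifs were picked after the sequences had been seen. None of the 9 member windows held GAGGAAGT (3.2% of all windows, each also a match to AGGAAGT), the longer interferon-stimulated response element, which is GAAANNGAA with a further A (3.44%), the E-box CACGTG (7.15%) or the nuclear receptor element AGGTCA (16.3%).

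HO1 genotype under the HO2 hairpin, with Hmox2 at unequal levels as given above, was compared in the combined and HO2 knockdown arrays. These share no array with the comparison that drew attention to the family. Earlier results of all 4 groups were nevertheless known when the members were chosen, so the tests are not independent of that choice. Of the 10 genes, 6 were higher in combined than in HO2 knockdown arrays (Ms4a6c, Ms4a6d, Ms4a6b, Ms4a4a, Ms4a4c and Ms4a7), by 2.56-fold to 29.1-fold, 1 was lower (Ms4a4d) and 3 did not pass the test (Ms4a4b, Ms4a1 and Ms4a2). Ms4a7, the gene at 2.56-fold, had both group means within the background range. Over all genes tested, 13% were higher and 21% lower, 34% in all (limma, adjusted p under 0.05). Of the genes called, 38.2% were higher as deposited and 27.1% after centring each array on its median. The median log2 fold change was 1.96 over the 10 genes and 0.022 over all genes.

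Ms4a6c, a member of the macrophage Ms4a6 group, had log2 signals of 11.68 and 11.70 in combined, 11.78 and 11.72 in HO1 knockout, 6.46 and 7.20 in HO2 knockdown and 6.83 and 7.07 in control arrays. All 4 HO1-/- arrays were high, and the HO1+/+ groups overlapped, with means within the background range. The HO2 knockdown mean, 6.830, was only just under its limit of 6.834, and replicate 2 of both HO1+/+ groups was above the limit of its group. The combined arrays exceeded the HO2 knockdown arrays by 4.86 log2 units (SE 0.155, 29.1-fold, adjusted p = 1.18e-12).

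Ms4a6d stood at 11.61 and 11.74 in combined, 12.21 and 12.08 in HO1 knockout, 6.89 and 7.17 in HO2 knockdown and 7.39 and 7.70 in control arrays. The HO1 knockout arrays were the highest, no 2 groups overlapped, and its mean was above the background range in every group. The difference between combined and HO2 knockdown arrays was 4.65 (SE 0.103, 25.1-fold, adjusted p = 1.73e-14).

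Ms4a4a encodes a macrophage surface protein that associates with the fungal receptor dectin-1. It gave 10.30 and 10.31 in combined, 10.83 and 10.69 in HO1 knockout, 6.28 and 6.23 in HO2 knockdown and 6.36 and 6.49 in control arrays. The groups did not overlap, and both HO1+/+ groups were within the background range. Combined exceeded HO2 knockdown by 4.05 (SE 0.0863, 16.6-fold, adjusted p = 1.2e-14).

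Ms4a6b, whose promoter resembles that of Ms4a6c, had 9.86 and 9.88 in combined, 9.66 and 9.62 in HO1 knockout, 5.88 and 6.03 in HO2 knockdown and 6.40 and 6.36 in control arrays. Here the combined arrays were the highest, none of the groups overlapped, and both HO1+/+ groups were within the background range. The difference between combined and HO2 knockdown arrays was 3.91 (SE 0.0898, 15.1-fold, adjusted p = 2.63e-14).

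Ms4a4c shared that order. Its signals were 8.24 and 8.43 in combined, 7.74 and 7.61 in HO1 knockout, 5.69 and 5.84 in HO2 knockdown and 6.32 and 6.26 in control arrays. The groups did not overlap, the HO1+/+ groups were within the background range, and combined exceeded HO2 knockdown by 2.57 (SE 0.106, 5.94-fold, adjusted p = 3.56e-11).

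Ms4a7, a macrophage gene, had 6.68 and 6.90 in combined, 9.20 and 9.05 in HO1 knockout, 5.36 and 5.51 in HO2 knockdown and 5.78 and 5.49 in control arrays. Only the HO1 knockout arrays were above the background range, the combined arrays lay between them and the HO1+/+ arrays, and the HO1+/+ groups overlapped. The difference between combined and HO2 knockdown arrays was 1.35 (SE 0.121, 2.56-fold, adjusted p = 5.48e-07), the smallest among the 6 genes that were higher.

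Ms4a4d ran differently. It had 7.60 and 7.15 in combined, 9.10 and 9.08 in HO1 knockout, 7.89 and 7.84 in HO2 knockdown and 9.49 and 9.83 in control arrays, so it was highest in control cells, above the background range in every group, with no overlap. Combined was lower than HO2 knockdown by a log2 fold change of -0.49 (SE 0.129, adjusted p = 0.00835). That call was lost without combined replicate 2 (-0.26, adjusted p = 0.165) and without HO2 knockdown replicate 1 (-0.47, adjusted p = 0.0655).

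The lymphocyte and mast cell members stayed within the background range in all 4 groups. Ms4a4b, known from T cells, had 5.25 and 5.21 in combined, 5.42 and 5.30 in HO1 knockout, 5.29 and 5.40 in HO2 knockdown and 5.76 and 6.0 in control arrays, so only the control arrays stood above the rest. Its log2 fold change of combined over HO2 knockdown was -0.12 (SE 0.099, adjusted p = 0.366). Ms4a1 (CD20) lay between 4.94 and 5.38 and Ms4a2 between 4.60 and 4.80 over all 8 arrays, with every neighbouring pair of groups overlapping. Their log2 fold changes of combined over HO2 knockdown were -0.078 (adjusted p = 0.616) and -0.062 (adjusted p = 0.581).

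**Figure D1:**
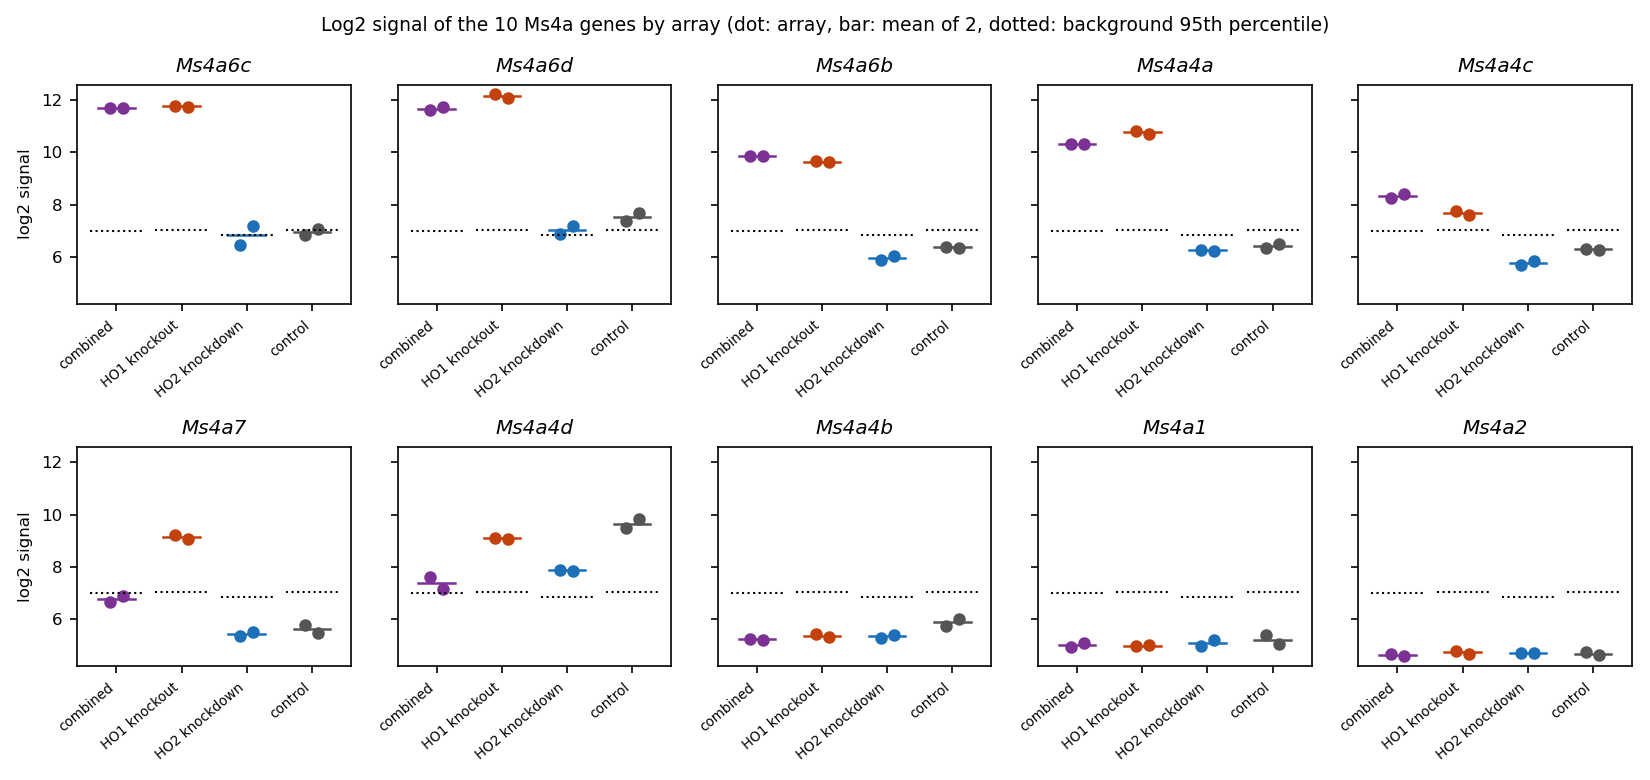
Log2 signal (vertical axis) of the 10 Ms4a genes in each array, with groups along the horizontal axis, dots for arrays, bars for the mean of 2 arrays and dotted lines for the 95th percentile of the background genes. Ms4a6c, Ms4a6d, Ms4a6b, Ms4a4a and Ms4a4c are high in all 4 HO1-/- arrays, Ms4a7 is highest in the HO1 knockout arrays, and Ms4a4b, Ms4a1 and Ms4a2 lie below the lines in every group.

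In the description of HO1 knockout against control arrays, the same 6 genes were more than 1 log2 unit higher: Ms4a6c by 4.80, Ms4a6d by 4.60, Ms4a4a by 4.34, Ms4a7 by 3.49, Ms4a6b by 3.27 and Ms4a4c by 1.38. Over all genes 1.38% were that much higher and 0.155% that much lower, a share given beside a count from the comparison that chose the family. Ms4a4d (-0.57), Ms4a4b (-0.52) and Ms4a1 (-0.23) were lower in the HO1 knockout arrays, with no overlap, and Ms4a2 differed by 0.043 with overlap. Ms4a1 differed by only -0.072 without control replicate 1. Ms4a4b and Ms4a1 were within the background range in both groups. Of other Ms4a genes within that range, Ms4a3 (-0.11), Ms4a5 (-0.14) and Ms4a20 (0.073) did not overlap either, while Ms4a12, Ms4a13 and Ms4a19 did. Non-overlap with 2 arrays a group is weak evidence, and its share over all genes was not counted. The median over the 10 genes was 2.33, beside -0.041 over all genes.

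Knockdown of HO2 in HO1+/+ cells was read from HO2 knockdown and control arrays, which share the control arrays with the comparison above. None of the 10 genes was higher, also at an unadjusted limma p under 0.05, and 5 were lower, while 16.5% of all genes were higher and 16.7% lower, 33.2% in all. Ms4a4d was lower by a log2 fold change of -1.79 (SE 0.129, 3.46-fold, adjusted p = 2.7e-08), the only change over 1 log2 unit. Ms4a4b (-0.53, adjusted p = 0.000549), Ms4a4c (-0.52, adjusted p = 0.00112), Ms4a6d (-0.52, adjusted p = 0.000941) and Ms4a6b (-0.42, adjusted p = 0.00171) were lower by smaller amounts. Of these 4, Ms4a4b, Ms4a4c and Ms4a6b were within the background range in both groups, so the differences sit among signals of that height. Ms4a7 (-0.20, adjusted p = 0.224), Ms4a4a (-0.17, adjusted p = 0.152), Ms4a6c (-0.12, adjusted p = 0.578), Ms4a1 (-0.13, adjusted p = 0.396) and Ms4a2 (0.019, adjusted p = 0.879) did not pass, and all 5 were within the background range in both groups, where a fall in RNA may not show. For Ms4a6c the replicates decided the value, which was 0.25 without HO2 knockdown replicate 1 (adjusted p = 0.0867) and -0.49 without replicate 2 (adjusted p = 0.002). Ms4a7 passed without control replicate 2 (-0.34, adjusted p = 0.035). The median was -0.31 over the 10 genes and -0.066 over all genes.

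The same hairpin in HO1-/- cells was read from combined and HO1 knockout arrays, which share the HO1 knockout arrays with the described comparison. Of the 10 genes 1 was higher and 4 were lower, beside 10.2% higher and 12.8% lower over all genes, 23% in all. Ms4a7 was lower by a log2 fold change of -2.34 (SE 0.121, 5.05-fold, adjusted p = 8.58e-10), and the combined arrays were in the background range. Ms4a4d was lower by -1.71 (SE 0.129, 3.28-fold, adjusted p = 6.28e-08). Ms4a6d (-0.47, adjusted p = 0.00266) and Ms4a4a (-0.45, adjusted p = 0.000951) were slightly lower in the combined arrays while remaining far above background, and Ms4a4c was higher by 0.66 (SE 0.106, adjusted p = 0.000198). Ms4a6b (0.23, adjusted p = 0.0881), Ms4a6c (-0.061, adjusted p = 0.857), Ms4a4b (-0.13, adjusted p = 0.419), Ms4a1 (0.024, adjusted p = 0.928) and Ms4a2 (-0.086, adjusted p = 0.552) did not pass. Ms4a6b passed with array weights (adjusted p = 0.0486) and without control replicate 1 (adjusted p = 0.0446) or 2 (adjusted p = 0.0445). The median was -0.11 over the 10 genes and 0.014 over all genes.

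**Figure D2:**
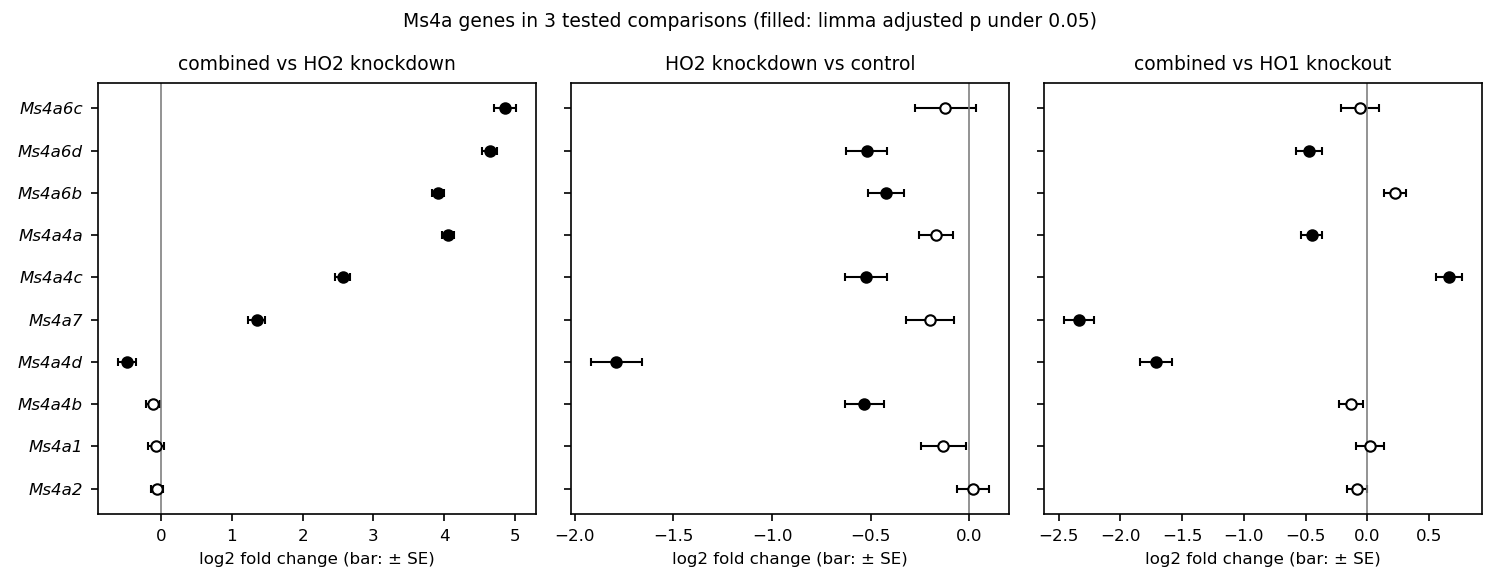
Log2 fold changes (horizontal axes, each with its own range) of the 10 Ms4a genes in the 3 tested comparisons, with bars for the standard error and filled dots for a limma adjusted p under 0.05. Combined against HO2 knockdown separates 6 genes from the other 4, whereas with the HO2 hairpin Ms4a4d is lower in both genotypes, and Ms4a7 has a log2 fold change of -2.34 in HO1-/- cells, while its HO1+/+ groups were both within the background range, where a fall may not show.

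The effect of the hairpin was set against genotype as the effect in HO1-/- cells minus that in HO1+/+ cells. This quantity contains the HO1 knockout and control arrays and is given without a test. Apart from Ms4a4d and Ms4a6d, all members were within the background range in both HO1+/+ groups, where a fall in RNA may not show, so for them the quantity does not compare equal chances to fall. It was -2.14 for Ms4a7, 1.19 for Ms4a4c and 0.65 for Ms4a6b, and between -0.28 (Ms4a4a) and 0.40 (Ms4a4b) for the other 7 genes. For Ms4a4d, above the background range in every group, with effects of -1.71 in HO1-/- cells and -1.79 in HO1+/+ cells, it was 0.079.

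Along chromosome 19 the RefSeq annotation listed 21 protein-coding Ms4a genes, with 1 other protein-coding gene lying among them. Of the 21, 19 were measured, and Ms4a18 and Ms4a14 were not analysed here. The 6 genes that were higher in combined than in HO2 knockdown arrays all lie in the stretch from Ms4a7 to Ms4a6d, in the order Ms4a7, Ms4a4a, Ms4a4c, Ms4a4b, Ms4a6c, Ms4a6b, Ms4a4d, Ms4a6d. Ms4a4b and Ms4a4d lie inside that stretch and were not higher. Ms4a4b follows Ms4a4c, with which it shares 88.5% of the aligned promoter bases shown above, yet it stayed at background in the arrays in which Ms4a4c was at 7.61 to 8.43. The related sequences of Ms4a4b and Ms4a4c, and of the Ms4a6 genes, could share probes or labelled target, and the assignment of signal between such neighbours is uncertain.

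**Figure D3:**
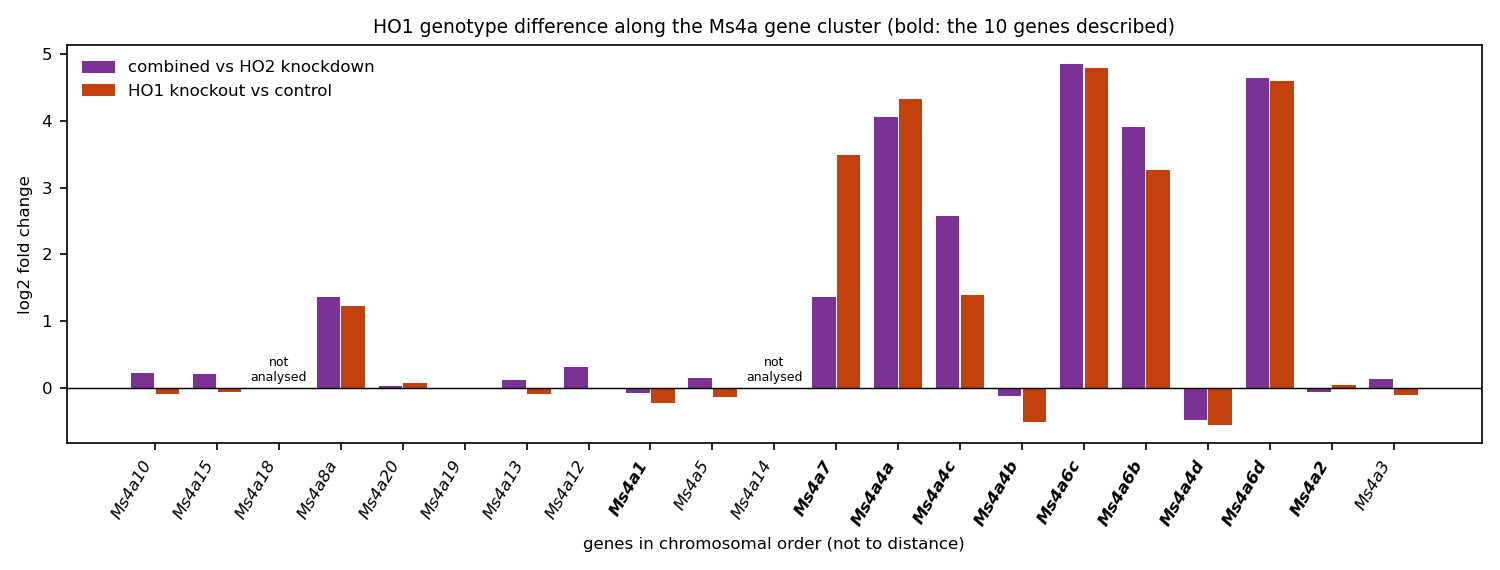
Log2 fold change (vertical axis) of the measured Ms4a genes in chromosomal order, without distances, for combined against HO2 knockdown and, as a description, HO1 knockout against control. Tall bars lie between Ms4a7 and Ms4a6d, interrupted by Ms4a4b and Ms4a4d, and Ms4a8a stands alone outside that stretch.

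Of 11 other family members measured, Ms4a3, Ms4a5, Ms4a8a, Ms4a10, Ms4a12, Ms4a13, Ms4a15, Ms4a19, Ms4a20 and the related Tmem176a and Tmem176b, 2 were higher and 2 lower in combined than in HO2 knockdown arrays. Over all genes, 13% were higher and 21% lower. Ms4a8a, known in the mouse from alternatively activated macrophages, had 8.91 and 8.97 in combined, 8.91 and 8.94 in HO1 knockout, 7.53 and 7.63 in HO2 knockdown and 7.64 and 7.76 in control arrays. It followed HO1 genotype, with a log2 fold change of 1.36 between combined and HO2 knockdown arrays (SE 0.0866, adjusted p = 9.53e-09). Ms4a12 (0.31, adjusted p = 0.0469) passed within the background range, and Tmem176a (-0.21, adjusted p = 0.0038) and Tmem176b (-0.16, adjusted p = 0.0115) were slightly lower. Tmem176a (0.35) and Tmem176b (0.31) were the 2 called between HO2 knockdown and control arrays, both higher, and 0 of the 11 passed between combined and HO1 knockout arrays (limma, also 0 at an unadjusted p under 0.05).

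The genes whose pattern lay nearest to each member were found as the smallest root mean square difference over the 8 arrays, after centring each gene on its own mean. For Ms4a6c they were Lyz2, which encodes the lysozyme of myeloid cells (0.199 log2 units), Pla2g7 (0.321), the leukocyte tetraspanin gene Cd53 (0.335), the complement receptor gene C3ar1 (0.346) and the lysosomal protease gene Ctss (0.347). Those of Ms4a6d were Cd53 (0.172), C3ar1 (0.223), Lilr4b (0.236), Lyz2 (0.302) and Pf4 (0.316). Ms4a4a lay closest of all to a neighbour, C3ar1 (0.0906), followed by Lilr4b (0.121), Cd53 (0.144), Laptm5 (0.15) and Fcer1g (0.197). Lists of 3 members thus held Cd53 and C3ar1.

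Ms4a6b had a different set of nearest genes, namely Tyrobp, an adaptor of activating myeloid receptors (0.17), Spi1, which encodes PU.1 (0.189), Cd180 (0.197), Pld4 (0.2) and Tlr13 (0.2). For Ms4a4c they were the cytokine receptor gene Csf2rb2 (0.178), the platelet-activating factor receptor gene Ptafr (0.201), Tifab (0.205), the lipid receptor gene Trem2 (0.205) and the interferon-inducible Ifi209 (0.21). Those of Ms4a4d were Pglyrp3 (0.162), Ust (0.199), Prnp (0.225), Gpm6b (0.226) and Crct1 (0.23).

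Ms4a7 lay farther from its nearest genes than the other 6 members did from theirs. They were Aoah, which encodes an enzyme that inactivates lipopolysaccharide (0.348), the chemokine gene Ccl12 (0.47), the lectin genes Clec4a2 (0.488) and Clec12a (0.506), and Spic, a transcription factor gene of heme-handling macrophages that heme induces (0.525). Spic averaged 7.72 in combined, 8.66 in HO1 knockout, 5.36 in HO2 knockdown and 5.71 in control arrays. Ccl12 averaged 6.46 in combined, 8.85 in HO1 knockout, 6.06 in HO2 knockdown and 6.17 in control arrays. Like Ms4a7, all of these nearest genes had their highest group mean in HO1 knockout arrays, as Ms4a4a, Ms4a6c and Ms4a6d did. In combined arrays Spic was above the background range, and Ccl12, like Ms4a7, was within it. Among the 6 genes that were higher in combined than in HO2 knockdown arrays, Ms4a6c and Ms4a6d (0.257) and Ms4a4a and Ms4a6d (0.267) were nearest to each other. Ms4a7 was at least 1.08 from each of the others. Members at background in all groups also lay close, such as Ms4a1 and Ms4a2 (0.153).

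**Figure D4:**
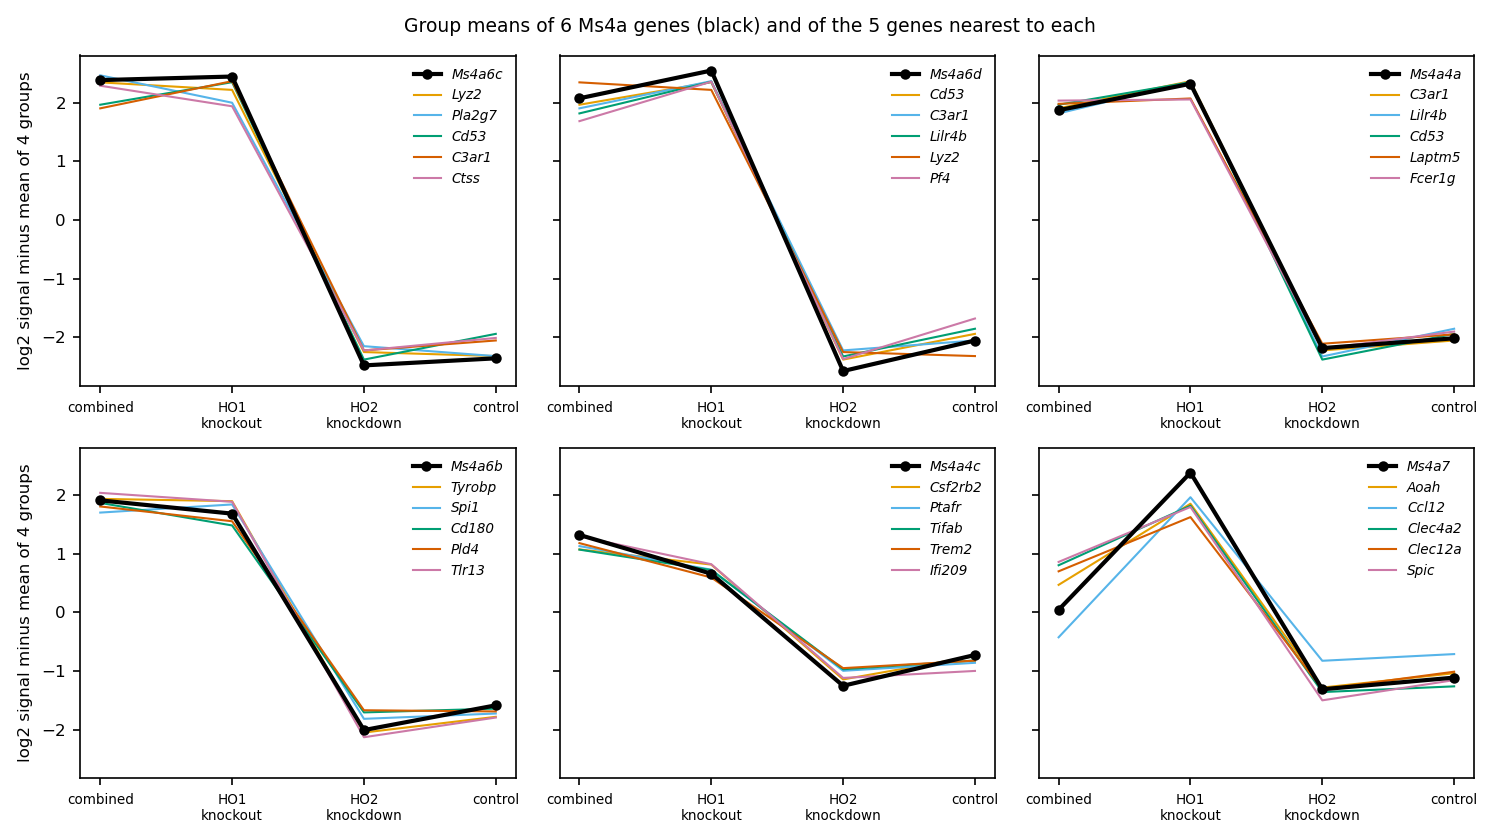
Group means of log2 signal minus the mean of the 4 groups (vertical axis) for the 6 genes that were higher in combined than in HO2 knockdown arrays, in black, and for the 5 nearest genes of each, in colour. The black lines of Ms4a6c, Ms4a6d, Ms4a4a and Ms4a6b step between HO1-/- and HO1+/+ groups, whereas that of Ms4a7 peaks in the HO1 knockout group.

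Many markers of Kupffer cells and macrophages moved with these genes, while several markers of resident liver macrophages did not. Beside the list counts from here on, 13% of all genes were higher and 21% lower in combined against HO2 knockdown arrays. These shares were 16.5% and 16.7% between HO2 knockdown and control arrays, and 10.2% and 12.8% between combined and HO1 knockout arrays. In combined against HO2 knockdown arrays, 12 of 17 measured markers were higher, 0 lower and 5 not called, with a median of 1.77. Lyz2 differed by 4.60 (adjusted p = 1.37e-15), the complement genes C1qb by 4.19 and C1qc by 3.91, and the mannose receptor gene Mrc1 by 3.96. The summed linear signal of the list was 32879 to 34777 in combined, 32774 to 33357 in HO1 knockout, 6698 to 6964 in HO2 knockdown and 7625 to 7897 in control arrays. Among markers of resident liver macrophages, Cd5l (1.15, adjusted p = 1.44e-05) and Clec4f (0.53, adjusted p = 0.00258) were higher, Vsig4 (0.30, adjusted p = 0.0865) and Marco (0.29, adjusted p = 0.0589) did not pass, and Timd4 and Cd163 were within the background range in all groups. In HO1 knockout against control arrays, described without a test, 10 of the 17 were over 1 log2 unit higher and 1 that much lower. There Cd5l differed by 1.41, Marco by 0.15, Clec4f by -0.042 and Vsig4 by -1.07. In bulk RNA, a larger number of macrophages and more of these transcripts per macrophage cannot be told apart, and the part of macrophage content in the Ms4a differences was not tested.

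The hairpin comparisons gave other values for the same list. Between HO2 knockdown and control arrays 0 of 17 were higher and 2 lower, Clec4f (-0.34, adjusted p = 0.0331) and Cd14 (-0.30, adjusted p = 0.00028), and 15 did not pass. Between combined and HO1 knockout arrays 4 were higher and 4 lower, with a median of 0.04. The macrophage adhesion receptor gene Adgre1 (-1.29, adjusted p = 1.18e-07), Cd14 (-0.77, adjusted p = 1.88e-08), Cd5l (-0.58) and Fcgr1 (-0.28) were lower, as Ms4a7, Ms4a6d and Ms4a4a were. Vsig4 (1.35, adjusted p = 9.85e-07), C1qc (0.81), C1qa (0.64) and C1qb (0.40) were higher, as Ms4a4c was.

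Signalling partners of the Ms4a proteins and of the receptors beside them formed a second list. Of 7 measured, 5 were higher in combined than in HO2 knockdown arrays, 0 lower and 2 not called, with a median of 2.13. Fcer1g, the gamma chain shared by Fc receptors, differed by 4.23, Tyrobp by 3.98, Clec7a, which encodes dectin-1, by 3.41 and Trem2 by 2.13. Fcer1a, the IgE-binding chain that pairs with the Ms4a2 product, was within the background range in all groups (0.16, adjusted p = 0.137). Between HO2 knockdown and control arrays Fcer1g (-0.29) and Tyrobp (-0.27) were lower, 2 of 7. Between combined and HO1 knockout arrays 2 of 7 were higher, Clec7a by 1.45 (adjusted p = 1.89e-08) and Trem2 by 0.59 (adjusted p = 0.000871).

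Of 9 myeloid transcription factors measured, 6 were higher in combined than in HO2 knockdown arrays, 0 lower and 3 not called, with a median of 0.22. Spi1 differed by 3.51 (adjusted p = 8.04e-14), Irf8 by 1.52, Irf5 by 0.87 and Maf by 0.79. Of 15 interferon-stimulated genes, 9 were higher, 1 lower and 5 not called, with a median of 0.29, led by Oasl2 (0.80), Rtp4 (0.70), Oas1a (0.61) and, lower, Cxcl10 (-0.62). The interferon list was lower for 12 of 15 between HO2 knockdown and control arrays, with a median of -0.47, and 0 were higher. Between combined and HO1 knockout arrays 8 of 15 were higher and 0 lower, with a median of 0.32. Ms4a4c shared both directions with the hairpin, the lower one between groups within the background range. In HO1 knockout against control arrays, described without a test, it went the other way from the list. There the list had a median of -0.45, with 3 of 15 genes over 1 log2 unit lower, while Ms4a4c was higher by 1.38. The part of interferon signalling in the Ms4a4c values was not tested. At an unadjusted limma p under 0.05, 1 interferon-stimulated gene was higher between HO2 knockdown and control arrays and 1 lower between combined and HO1 knockout arrays, and each other count of 0 given here for a marker, partner or transcription factor list was also 0.

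Markers of other blood cells differed less, but many were within the background range, where a difference in RNA may not show. In combined arrays, 4 of 6 monocyte, 4 of 8 dendritic cell, 2 of 10 neutrophil, 3 of 11 T and NK cell and 5 of 9 B cell markers were above that range. In combined against HO2 knockdown arrays, 3 of 6 monocyte markers were higher (F13a1 by 2.84), 2 of 8 dendritic cell markers (Itgax by 1.24), 1 of 10 neutrophil markers (Csf3r by 0.72) and 1 of 11 T and NK cell markers (Cd2 by 0.36, within the background range in all groups), and no marker of these lists was lower. For B cells, 3 of 9 were higher (Bank1 by 0.69, Cd22 by 0.64, Pax5 by 0.27), 0 lower and 6 not called, and Bank1 was within the background range in all groups. The summed signal of the B cell list was 1016 to 1072 in combined, 1029 to 1069 in HO1 knockout, 837 to 864 in HO2 knockdown and 875 to 1063 in control arrays, while Ms4a1, itself a B cell marker outside the list, stayed at background. For mast cells and basophils 0 of 10 were higher and 1 lower (Kit, -0.31). Cpa3, Mcpt4, Tpsb2, Cma1 and Fcer1a of this list were within the background range in all groups, as Ms4a2 was. Kit, Mcpt8, Tpsab1, Hdc and Gata2 were not, and 4 of the 10 were above that range in combined and 5 in control arrays. Of the liver lists, 2 of 12 hepatocyte markers were higher and 3 lower, with a median of 0.066. Of 8 sinusoidal endothelial markers 5 were higher (Lyve1 by 1.14) and 1 lower, and of 10 stellate cell and fibroblast markers 1 was higher and 6 lower (Lrat, -1.19).

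Hepatocyte markers differed with the hairpin too. Between HO2 knockdown and control arrays 9 of 12 were higher and 1 lower, with a median of 0.88, and between combined and HO1 knockout arrays 9 were higher and 0 lower, with a median of 0.52. The summed hepatocyte signal was 110857 to 113850 in combined, 71180 to 71690 in HO1 knockout, 106649 to 110876 in HO2 knockdown and 60301 to 61434 in control arrays. Ms4a4d, lower with the hairpin in both genotypes, moved opposite to this list, and the part of culture composition in that difference was not tested.

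**Figure D5:**
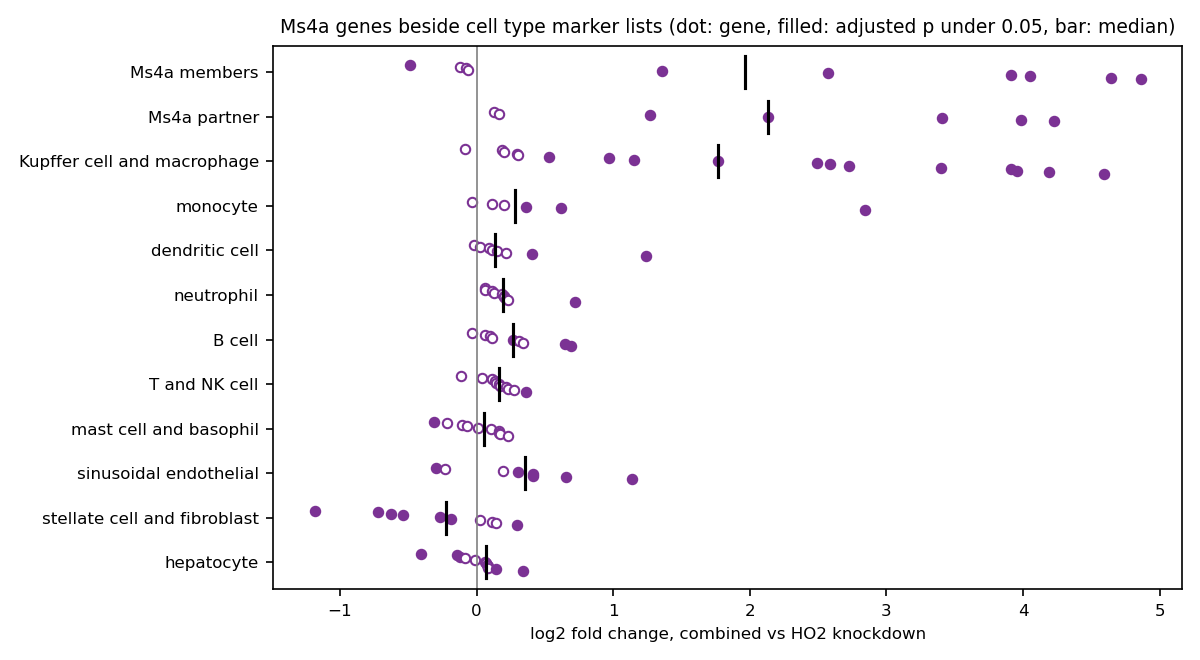
Log2 fold change of combined over HO2 knockdown (horizontal axis) for the 10 Ms4a genes, their partner list and 10 cell type marker lists, with a dot for each gene, filled where the limma adjusted p was under 0.05, and a bar for the median. The Ms4a genes, with a median of 1.96, lie beside the partner (2.13) and macrophage (1.77) lists, and the other lists centre near 0. Many markers of the other blood cells were within the background range.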

How the data were processed

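Hepatocyte RNA was hybridised to 8 arrays, 2 a group, from 300 ng total RNA per the labels' protocols. The deposited log2 values per probe set were made by the authors with RMA, and the submitters' processing notes name the affy package and R 2.15.0 for it. The chip definition file and genome build were not given in the sources used here. RMA shares information over arrays and keeps background signal in dim probe sets. Of 34760 probe sets, 21640 carried 1 symbol in the platform table and were used, 1321 carried several and 11799 none. The brightest probe set was kept for 954 genes with several, which left 19937 genes.

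Group means were fitted with limma 3.58.1 in R 4.3.3 over all 8 arrays (4 residual and 11.2 prior degrees of freedom, mean-variance trend). Tests were two-sided, p-values were adjusted by Benjamini-Hochberg over all 19937 genes, and calls were made at an adjusted p under 0.05. SE is the moderated standard error, and the number of arrays limits the precision. The members, the 13 lists (132 of 142 entries measured) and the tests were chosen with earlier results of these data known. Named genes are the members, the rest of the family, Hmox1 and Hmox2, the 5 nearest genes of each member whose group means range over more than 1 log2 unit, and up to 4 genes a list with the largest change between combined and HO2 knockdown arrays. Other list genes were named after their values were seen. The 2 replicate numbers were not taken to pair samples, since deviations of same-numbered arrays correlated between -0.261 and 0.122 (6 pairs of groups). Alternatives covered the variance model, array weights, scaling, dim genes, probe sets per gene, the threshold, a replicate block and leaving out each array.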

Additional observations from a re-analysis of the deposited data

Results flagged for a closer look

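For Ms4a4c and Ms4a6b the signals moved in opposite directions with the HO2 hairpin in the 2 genotypes, with every array of each comparison on the same side. With 2 arrays a group such separation is weak evidence, and the share of all genes that show it was not counted. For Ms4a4c, combined arrays were higher than HO1 knockout arrays by 0.66, and HO2 knockdown arrays were lower than control arrays (-0.52), a difference of 1.19 log2 units. For Ms4a6b the values were 0.23 in HO1-/- cells, which did not pass its test, and -0.42 in HO1+/+ cells, a difference of 0.65. Both HO1+/+ groups were within the background range for both genes, with means of 5.77 in HO2 knockdown and 6.29 in control arrays for Ms4a4c and of 5.96 in HO2 knockdown and 6.38 in control arrays for Ms4a6b, so the lower values there compare signals at the height of background. Neither difference was tested, because both contain the HO1 knockout and control arrays that drew attention to the family.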

How the results depend on the processing

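Leaving out genes with a mean log2 signal at or below 8.16 removed 6 of the 10 genes (Ms4a4b, Ms4a4c, Ms4a6b, Ms4a7, Ms4a1 and Ms4a2), so that by construction 4 members were called in combined against HO2 knockdown, 2 in HO2 knockdown against control and 3 in combined against HO1 knockout, and 3 were over 1 log2 unit higher in HO1 knockout than in control arrays. Without each array in turn, those counts ran from 6 to 7, 5 to 6, 5 to 6 and 6 to 6. Signs turned only in values that had not passed or had no test, when 1 array was left out: combined against HO2 knockdown ran from -0.21 to 0.054 for Ms4a1, HO2 knockdown against control from -0.49 to 0.25 for Ms4a6c, from -0.29 to 0.03 for Ms4a1 and from -0.033 to 0.070 for Ms4a2, combined against HO1 knockout from -0.054 to 0.10 for Ms4a1, and HO1 knockout against control from -0.030 to 0.12 for Ms4a2. Over all settings, 448 of 462 fold changes of members kept direction and side of the threshold, 5 newly passed, 2 no longer passed and 7 turned sign. Genes called in combined against HO2 knockdown numbered 6775, but 3827 without HO2 knockdown replicate 1, 4485 without combined replicate 1 and 4072 without combined replicate 2.

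With the replicate number as a block, 7, 5 and 5 members were called in combined against HO2 knockdown, HO2 knockdown against control and combined against HO1 knockout, the same counts as without it, and 30 of 30 fold changes of members kept their call.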

Other observations

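Genes beside the Ms4a cluster mostly did not share its difference. Of the 10 nearest genes on each side, 20 in all and chosen after the data were seen, 2 were higher in combined than in HO2 knockdown arrays and 1 was lower. Over all genes, 13% were higher and 21% lower, so 2 of 20 higher is near the general share. The median log2 fold change was 0.066 for the 20 genes and 0.022 over all genes. Slc15a3, which encodes a histidine and peptide transporter of lysosomes, was higher by 1.64 (limma, adjusted p = 2.11e-08). Olfr1419, an olfactory receptor gene, passed with 0.27 (adjusted p = 0.0478), and Vps37c, a gene of the endosomal sorting machinery, was lower at -0.56 (adjusted p = 8.61e-06). The T cell genes Cd5 (0.23, adjusted p = 0.121) and Cd6 (0.18, adjusted p = 0.216), which also lie there, did not pass. These genes were named after their values were seen.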
